A study of Mus musculus with 4 samples.

Results

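The cytosolic ribosomal protein genes encode the protein part of the ribosomes that translate nuclear-encoded mRNAs. They were taken by name, as the gene features called Rpl or Rps with a number (and an a, x, l or y ending), plus Rplp0, Rplp1, Rplp2 and Rpsa. The rule found 83 of the 31053 genes in the files, 32 of the small (40S) and 51 of the large (60S) subunit, and used no measured value. The data are 2 joint 10x libraries, in which RNA molecules and transposase cuts in open chromatin are counted in the same nucleus. Lungs of male mice were taken 8 days post injury with bleomycin, which damages the alveoli, and GFP+ alveolar type 2 (AT2) cells were sorted and taken to nuclei. Both genotypes carried SftpcCreERT2, a tamoxifen-inducible Cre driven by the surfactant protein C gene of AT2 cells, and the Rosa26mTmG reporter, which turns green in cells where Cre was active. The CKO genotype also carried floxed alleles of IP (gene Ptgir), a receptor for prostaglandin I2. Each genotype has 1 library. Differences between them therefore have no replicate check and were not tested, genotype and library cannot be told apart, and the 95% intervals cover counting error only.

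A ribosome needs its proteins in equal numbers, and cells are known to make them together. Their mRNAs are short, abundant and long-lived, sit mostly in the cytoplasm on ribosomes, and typically begin with a run of pyrimidines, the 5' terminal oligopyrimidine tract, through which the kinase complex mTORC1 controls their translation. A preparation of nuclei therefore counts the transcripts still in the nucleus, plus whatever cytoplasmic RNA stays attached to the nucleus or enters its droplet. Mitochondrial transcripts are made outside the nucleus, so their share of a barcode's UMIs (unique molecular identifiers, one per captured RNA molecule) is a common measure of such cytoplasmic carry-over.

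The Control library held 13569 barcodes with 48378328 UMIs, and the library labelled CKO 10925 barcodes with 30818808 UMIs, with 193 barcode sequences found in both. The median mitochondrial share per barcode was 24.2% in Control and 16.6% in CKO. Nuclei under a 20% mitochondrial share that passed the depth filters numbered 2185 and 3883, of which 2062 and 2328 fell in alveolar epithelial clusters. The other kept nuclei, 123 and 1555, fell in clusters with markers of leukocytes, endothelium, fibroblasts or ciliated cells. The labels, by contrast, name sorted AT2 cells. In alveolar nuclei all 12 AT2 markers were detected in both libraries, but so were all 9 ciliated, 6 club and 8 B markers. Detection in summed counts therefore does not tell cell types apart. Ptgir had 0 UMIs in alveolar nuclei of the Control library and 1 in those of CKO, so its level cannot check the labels, and a 3' tag outside the deleted part would check nothing.

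Ribosomal protein RNA was about 2-fold higher in the alveolar nuclei of the library labelled CKO. The summed members had 8091 UMIs per 1000000 non-mitochondrial UMIs (CPM) in Control (48854 UMIs) and 17804 in CKO (119091 UMIs), a log2 ratio of 1.14 (1.12 to 1.15). In the median alveolar nucleus 0.632% of non-mitochondrial UMIs came from members in Control (quartiles 0.349% and 1.02%) and 1.51% in CKO (1.06% and 2.22%), so the upper quartile of Control lay just under the lower quartile of CKO. A median Control nucleus had UMIs from 10.0 members and a median CKO nucleus from 26.0, at median depths of 2108 and 2664 UMIs.

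Of the 83 members, 80 had at least 20 UMIs over both libraries. All 80 were higher in CKO, as were 10655 of 13661 genes, and the interval of each member lay above a log2 ratio of 0. A ratio above 2-fold was found for 54 of the 80, and over all genes at that depth for 17.5% of 13661. None of the 80 was more than 2-fold lower, against 3.08% of all genes. The median member had a log2 ratio of 1.12 (lower and upper quartile 0.92 and 1.25), whereas the median of all genes tested was 0.47. The all-gene median was itself above 0, and the non-coding RNAs Gm42418 and AY036118 took a larger part of the Control total: Gm42418 alone was 13.3% of non-mitochondrial UMIs in Control and 6.09% in CKO. With the 2 libraries scaled by the median of gene ratios instead, the summed log2 ratio was 0.70, and 10 members were above 2-fold. With Gm42418, AY036118, Malat1 and Neat1 left out of the total it was 0.98, and 35 members were above 2-fold. Set against the all-gene median, 79 of the 80 members lay above it and Rpl10 lay below. Among the 5986 genes with at least 100 UMIs whose Control level lay in the members' range, the median log2 ratio was 0.37, and 6.63% were above 2-fold.

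**Figure D1:**
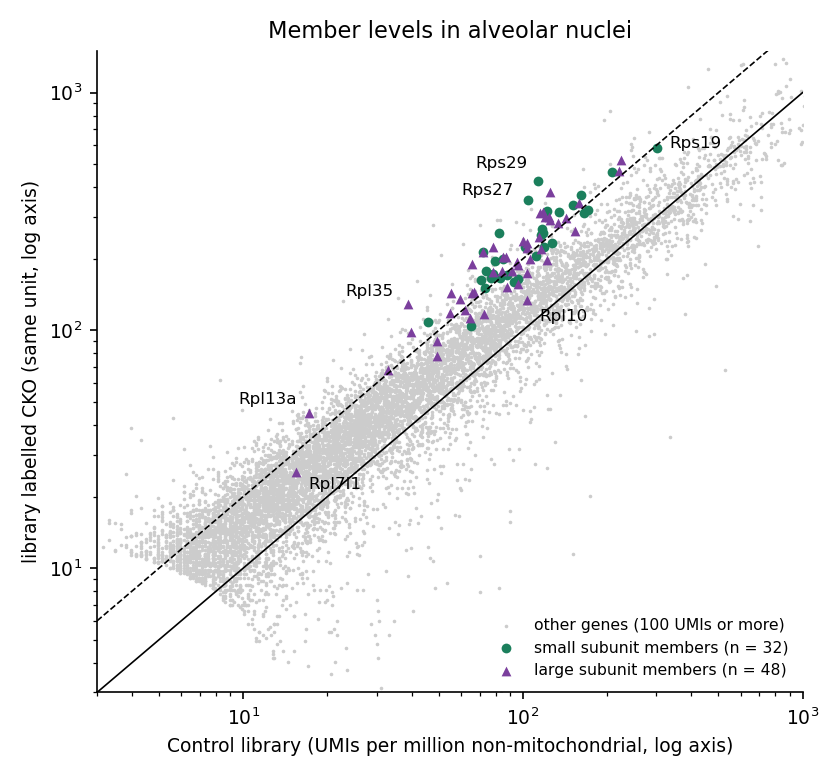
Level of each gene in alveolar nuclei of the Control library (x, log axis) and of the library labelled CKO (y, log axis), in CPM. The axes stop short of the most abundant genes. Green circles are the 32 small subunit members, purple triangles the 48 large subunit members with at least 20 UMIs, grey points other genes with at least 100 UMIs, the solid line is equality and the dashed line 2-fold. All members shown lie above the solid line, 54 of them above the dashed one, with Rps29 farthest above it and Rpl10 nearest to the solid line.

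Both subunits took part to a like extent, with 67.5% of all members tested and 17.5% of all genes above 2-fold. All 32 small subunit members were higher in CKO, 22 of them above 2-fold, with a median of 1.14 and a summed log2 ratio of 1.16 (1.13 to 1.18). All 48 large subunit members tested were higher, 32 of them above 2-fold, with a median of 1.12 and a summed log2 ratio of 1.12 (1.10 to 1.14). UMIs count captured 3' ends and were not corrected for how well each gene is captured. Each ratio below therefore compares a member with itself across libraries, and levels are not used to rank expression between members.

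Rps29, Rps27 and Rpl35 had the highest ratios. Rps29, a zinc-binding protein of the small subunit head (chromosome 12, gene start at 69159186), had 113 CPM in Control and 426 in CKO, a log2 ratio of 1.92 (1.79 to 2.04). Rps27, another zinc-binding small subunit protein, had 104 and 355, a ratio of 1.77 (1.64 to 1.90). Rpl35, which lies near the exit of the tunnel through which the new protein leaves, had 38.8 and 129, a ratio of 1.73 (1.52 to 1.95). The next in order were Rps21 at 1.65, Rpl37a at 1.61, Rpl36 and Rps28 both at 1.57, and Rpl39 at 1.54. The intervals of neighbours in this order overlapped, whereas that of Rps29 lay wholly above those of Rpl37a, Rpl36, Rps28 and Rpl39.

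At the other end stood Rpl10, a large subunit protein that joins late in assembly (chromosome X, gene start region 74270812 to 74270860). It had 103 CPM in Control and 134 in CKO, a log2 ratio of 0.38 (0.23 to 0.53), and its interval lay below those of Rpl18, Rpl19 and Rpl7 but overlapped those of Rpl22l1, Rps3, Rpl3 and Rpl7l1. Its direction turned to -0.16 (-0.24 to -0.075) with no mitochondrial limit and to -0.053 (-0.20 to 0.097) by the median of ratios. In alveolar barcodes split by mitochondrial share, Rpl10 stayed above 0 in each bin under 40%. It had 0.63 under 5%, 0.38 at 5 to 10%, 0.41 at 10 to 20% and 0.042 at 20 to 40%. Rpl22l1, a paralog of Rpl22, had 49.2 and 78.0, a ratio of 0.67 (0.46 to 0.88). Rps3, which lines the mRNA entry channel, had 65.4 and 104, a ratio of 0.67 (0.49 to 0.86). Rpl3, a core protein near the peptidyl transferase centre, followed at 0.69, then Rpl18 (-0.017 with no mitochondrial limit) and Rpl19 both at 0.70, Rpl7l1 at 0.72 and Rpl7 at 0.75. Across the 80 members the ratio went with genomic length at Pearson r = -0.33 and Spearman rho = -0.25, and with the Control level at r = -0.05. These are descriptions across genes counted in the same 2 libraries, with no test.

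The promoters of the 2 highest and 2 lowest members with a sequence at hand are shown because they hold the first transcribed bases, where the pyrimidine tract of this family lies. Each runs from 75 bases before the RefSeq start to 25 bases from it on, in GRCm38.p6, 5' to 3' on the gene's strand. Capitals mark the longest run of C and T that touches the window of 5 bases on either side of the first transcribed base.
Rps27: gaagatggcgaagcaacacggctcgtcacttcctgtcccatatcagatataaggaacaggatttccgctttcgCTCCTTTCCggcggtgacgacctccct
Rpl35: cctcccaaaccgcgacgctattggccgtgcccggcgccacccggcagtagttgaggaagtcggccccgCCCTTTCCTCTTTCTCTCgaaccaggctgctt
Rpl10: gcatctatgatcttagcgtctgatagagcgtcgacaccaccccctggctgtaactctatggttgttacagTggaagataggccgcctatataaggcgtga
Rpl22l1: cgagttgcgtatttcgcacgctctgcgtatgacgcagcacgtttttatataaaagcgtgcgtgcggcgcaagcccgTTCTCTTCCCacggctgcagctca

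Rps27 lies at chr3:90213624-90213723 on the minus strand, Rpl35 at chr2:39005107-39005206 on the minus strand, Rpl10 at chrX:74270741-74270840 on the plus strand and Rpl22l1 at chr3:28805433-28805532 on the plus strand. The run was 9 bases in Rps27, 18 in Rpl35, 1 in Rpl10 and 10 in Rpl22l1, so the low end of the order held both the shortest run shown and one longer than that of Rps27. The start of Rpl35 in RefSeq is 493 bases from the one in the files' gene rows, and that of Rpl22l1 39 bases. Of the 83 members, 63 had a RefSeq promoter of 300 bases, and for 55 of them the start lay within 50 bases of that in the files. A run of 8 or more touching the start was found in 21 of 63 members, or 33.3%, and in 9.60% of 27025 genes. The median log2 ratio was 1.14 in the 21 members with such a run and 1.12 in the 39 tested members without it. An annotated start can be some bases off, so a missing run says only that these letters are not in this window.

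Other letters were searched on both strands of the same 300 bases, and no match of one motif overlapped a match of another in the members. The ETS-type motif CCGGAAG was found in 26 of 63 members (41.3%, against 9.16% of all promoters), the GC box GGGCGG in 38 (60.3% against 35.9%), the YY1-type motif AAGATGGC in 5 (7.94% against 2.89%) and the TATA box TATAAA in 6 (9.52% against 14.1%). In Rps27 the YY1-type letters lie at the left end of the stretch above. The 25 tested members with the ETS-type motif had a median log2 ratio of 1.22 and a range of 0.70 to 1.73, inside the range of 0.38 to 1.77 of the 35 without it.

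The functional parts of the ribosome gave ratios close to that of the whole family. Of all members tested 67.5% were above 2-fold, against 17.5% of all genes. The 3 proteins of the P stalk, which recruits elongation factors, were all above 2-fold: Rplp0 had 134 CPM in Control and 282 in CKO, Rplp1 had 224 and 521, and Rplp2 had 115 and 313. Their log2 ratios were 1.07 (0.95 to 1.19), 1.22 (1.13 to 1.31) and 1.45 (1.32 to 1.57), so Rplp2 lay above Rplp0 beyond their counting error. Rpl5 and Rpl11, which bind 5S ribosomal RNA and, when free, the p53 inhibitor Mdm2, had 1.13 (0.96 to 1.30) and 1.16 (1.01 to 1.32). Of the 8 proteins listed at the tunnel exit 6 were above 2-fold, with Rpl35 highest at 1.73 and Rpl19 lowest at 0.70.

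Within the small subunit parts, members lay apart as well. At the mRNA entry channel Rps2 had 70.7 CPM in Control and 163 in CKO, an interval of 1.04 to 1.37 for the log2 ratio, wholly above that of Rps3. At the mRNA exit Rps28 had 1.57 (1.41 to 1.73) and Rps26 0.78 (0.63 to 0.92), also apart. Rps6, the protein phosphorylated by the S6 kinases downstream of mTORC1, had 78.0 CPM in Control and 172 in CKO, a ratio of 1.14 (0.98 to 1.30). Rpsa, which is also known as a laminin receptor, had 122 and 317, a ratio of 1.38, and the X-linked Rps4x 1.01 (0.86 to 1.17). Rps27a, which is made as a fusion with ubiquitin, had 0.91 (0.78 to 1.04).

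Of the 9 listed members whose human counterparts are mutated in Diamond-Blackfan anaemia, 5 were above 2-fold, with a median of 1.13. The share above 2-fold was 67.5% among all members tested and 17.5% among all genes. Rps19, the gene most often mutated in that disease, had 301 CPM in Control and 586 in CKO, a ratio of 0.96 (0.88 to 1.04). By captured UMIs, which do not rank expression between members, Rps19 was followed in Control by Rplp1. Next were Rpl41 at 220 and 467 CPM (1.09) and Rps12 at 209 and 465 (1.16). Rps26 was the lowest of the 9 at 0.78.

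Paralogs of ribosomal protein genes are duplicated copies, several of which are known from testis or muscle. Rpl10l had 0 UMIs in all barcodes of both libraries, Rpl39l had 2 in Control and 3 in CKO, and Rpl3l had 17 and 12, so these were nearly absent from the counts. The 3 paralogs with enough UMIs were Rps27l, a p53 target, at 1.24 (1.03 to 1.44), Rpl7l1 at 0.72 (0.35 to 1.10) and Rpl22l1 at 0.67. Their parents Rps27, Rpl7 and Rpl22 had 1.77, 0.75 (0.61 to 0.90) and 0.88 (0.67 to 1.08), so only in the Rps27 pair did the intervals lie apart. Many members have near-identical processed pseudogenes, and how reads shared with a copy were counted is not given in the sources used here. Rpl13a had 17.2 CPM in Control and 45.1 in CKO, a ratio of 1.39 (1.06 to 1.73). Its low count does not rank its expression against other members, for the reasons above.

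Genes with related roles outside the naming rule gave the following values in the same nuclei, to be read against 17.5% of all genes above 2-fold and 10655 of 13661 higher. All 5 ribosomal proteins or copies left out by name were higher in CKO, with Rack1, a scaffold on the small subunit, the 1 above 2-fold, at 77.3 CPM in Control and 204 in CKO. Rpl36al had a log2 ratio of 0.80 and Fau 0.79. All 15 other mRNAs listed for a terminal pyrimidine tract were higher, 4 of them above 2-fold, with a median of 0.72. Tpt1, a translationally controlled protein, had 1.32 (1.24 to 1.41) and Eef1a1, the main elongation factor, 1.24 (1.16 to 1.33), whereas Hnrnpa1 had 0.37 and Eif4a2 0.26. Of 29 ribosome biogenesis genes 25 were higher and 4 lower, 5 above 2-fold, with a median of 0.63, a share above 2-fold near that of all genes. Nhp2, a snoRNP protein, was at 1.33 and Rrp1b at 1.08, while Nop2, an rRNA methyltransferase, was at -0.44 and nucleolin, Ncl, at -0.45 (-0.58 to -0.31). Of 13 genes of the mTORC1 pathway 11 were higher and 1 was above 2-fold (Eif4ebp1, with 14 UMIs in Control and 62 in CKO), with a median of 0.43, near the all-gene median of 0.47. Eif4ebp2, a translation repressor, had 0.83 and Rps6kb2 0.80, against -0.073 for Rptor and -0.33 for Deptor, an inhibitor of the complex.

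Mitochondrial ribosomal protein genes, which are also encoded in the nucleus but serve mitochondrial translation, had 74 of 77 members higher, 21 above 2-fold and a median of 0.79. Mrps18c was highest among those with at least 100 UMIs at 1.54, followed by Mrps36 at 1.44, and Mrpl24 at 0.13 and Mrps28 at -0.22 were lowest. Abundant cytoplasmic mRNAs of other functions were higher for 12 of 13 genes, 3 above 2-fold, with a median of 0.81: Actb had 1.45 (1.38 to 1.51) and Tmsb10 1.29, whereas B2m had 0.083 and Ubb -0.44. Of 6 non-coding RNAs listed as nuclear 3 were higher and 3 lower, with Meg3 at 0.58, Neat1 at 0.44, Gm42418 at -1.13 and AY036118 at -2.07. Gm42418 and AY036118 differed from the others by mitochondrial share. From the lowest to the highest share in Control their log2 ratios were 1.22 and 0.52, against -0.83 for Malat1 and -0.92 for Neat1. Calling these 2 nuclear therefore rests on the list alone. The summed log2 ratio was 0.88 for the other pyrimidine-tract mRNAs, 0.86 for the abundant cytoplasmic mRNAs and 0.66 for the mitochondrial ribosomal proteins, against 1.14 for the members.

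The level of ribosomal protein RNA went with the mitochondrial share of the barcode. Over all barcodes that passed the depth filters, the summed level in Control was 3533 CPM where the mitochondrial share was under 5%, 7009 at 5 to 10%, 9432 at 10 to 20%, 14785 at 20 to 40% and 24095 at 40% or more. In the library labelled CKO the same bins had 12764, 17746, 20564, 25420 and 41131. Each bin was higher than the one before it in both libraries, and CKO was higher than Control in every bin.

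From the lowest to the highest bin the log2 ratio was 2.77 (2.72 to 2.82) in Control and 1.69 (1.66 to 1.72) in CKO. All 80 members tested had a higher level in the highest bin in both libraries. In Control 79 of 80 were above 2-fold, against 13.8% of 9815 genes, and in CKO 79 of 80, against 11.2% of 9905 genes. The median member had 2.75 in Control and 1.72 in CKO, while the medians of all genes were -0.35 and -0.13. The ratios of the members in the 2 libraries went together at Pearson r = 0.61 and Spearman rho = 0.39 over 80 members, which share the same barcodes within each library.

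Rpl15 and Rpl29, both of the large subunit, had among the largest differences between the bins in Control. There Rpl15 went from 13.7 to 174 CPM, a log2 ratio of 3.66 (2.95 to 4.48). Rpl29 went from 13.7 to 171, a ratio of 3.64 (2.92 to 4.46). Each rests on 16 UMIs in the lowest bin. In CKO their ratios were 1.75 (1.41 to 2.09) and 1.78 (1.45 to 2.12), near the member median of 1.72. Rpl7 had 3.46 and 1.94 in the 2 libraries, and Rpl27 3.37 and 2.11. The smallest difference was in a paralog. Rpl7l1 went from 17.2 to 23.8 CPM in Control, a ratio of 0.47 (-0.28 to 1.28), and from 23.4 to 36.0 in CKO, a ratio of 0.62 (-0.28 to 1.46). Rpl22l1 had 1.44 and 1.03, Rps27l 2.29 and 1.20, and Rpl4 1.78 and 1.20. Rpl7l1 was thus the 1 member whose interval held 0 in both libraries.

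Other cytoplasmic mRNAs followed the same order to differing extents. Summed abundant cytoplasmic mRNAs had 2.41 (2.33 to 2.49) in Control and 1.43 (1.37 to 1.48) in CKO, with 13 of 13 above 2-fold in each. Other pyrimidine-tract mRNAs had summed ratios of 1.35 and 1.15 with 8 of 15 above 2-fold in each library, and mitochondrial ribosomal proteins 0.75 and 0.56. Ribosome biogenesis genes had -0.13 and 0.24, and mTORC1 genes -0.61 and -0.18. Malat1, which stays in the nucleus, went from 51938 to 29187 CPM in Control and from 39692 to 21494 in CKO. Gm42418 went the other way, from 104828 to 244090 and from 55691 to 133623.

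**Figure D2:**
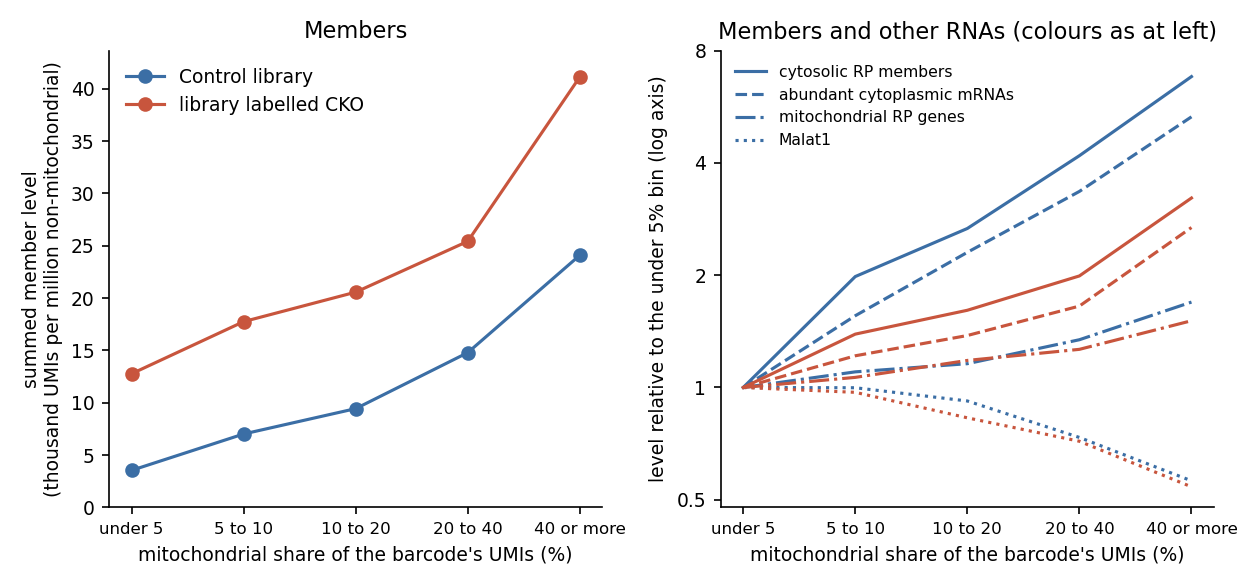
Left, summed level of the members (in 1000 CPM) in barcodes binned by the mitochondrial share of their UMIs, for the Control library (blue) and the library labelled CKO (red); counting intervals are smaller than the points. Right, on a log axis, the level relative to the under 5% bin for the members (solid), abundant cytoplasmic mRNAs (dashed), mitochondrial ribosomal protein genes (dash and dot) and Malat1 (dotted), in the same colours. The members reach 24095 and 41131 CPM at 40% or more, and Malat1 goes down in both libraries.

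The difference between the libraries was largest where the mitochondrial share was lowest. Among alveolar barcodes, classed in a clustering without the mitochondrial limit, the summed log2 ratio of CKO over Control was 1.71 (1.66 to 1.76) under 5%, 1.26 (1.22 to 1.30) at 5 to 10%, 1.08 (1.06 to 1.09) at 10 to 20%, 0.74 (0.73 to 0.75) at 20 to 40% and 0.84 (0.81 to 0.87) at 40% or more. All 80 members were higher in CKO in each bin up to 40%, and 78 of 80 in the last, while of all genes 72.7%, 73.9%, 78.3%, 81.2% and 73.9% were higher in the same bins. Rpl10 had the lowest ratio in the first 4 bins and Rpl18 in the last. The medians of all genes in these bins lay between 0.37 and 0.54, so the members' median of 1.70 in the first bin stood farther from it than their 0.85 in the last. Without a mitochondrial limit, the ratio over all alveolar barcodes was 0.57 (0.56 to 0.58) and 7 members were above 2-fold in place of 54. The median alveolar mitochondrial share without the limit was 27.1% in Control and 17.7% in CKO. With the limit it was 11.9% and 10.3%, and weighting the Control nuclei to the CKO shares gave 1.17.

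Among the kept nuclei, the members were higher in CKO in every class with at least 10 nuclei in both libraries. AT2-like nuclei (1542 in Control, 1233 in CKO) had summed levels of 7502 and 15784 CPM, a log2 ratio of 1.07 (1.05 to 1.09). There, 46 of 80 members were above 2-fold, against 17.5% of 11599 genes. These nuclei did not mix evenly: one cluster held 905 of Control and 22 of CKO, and another 79 of Control and 926 of CKO, with summed levels of 7325 and 14653 in the former and 7794 and 15036 in the latter. In the remaining AT2-like cluster, a shallow one led by AY036118 (558 and 285 nuclei), the levels were 8279 and 21673. The name of this cluster depended on the setting. With members kept in the clustering, a cluster led by AY036118 (676 and 346 nuclei) was called transitional. In a finer clustering without members, one led by AY036118 (527 and 30 nuclei) was called AT2. Nuclei with AT1-like and transitional markers, the flat gas-exchange cells and the intermediate state on the way to them (504 and 1080), had 9865 and 19469, a ratio of 0.98 (0.96 to 1.01). Of the members 35 of 80 were above 2-fold there, against 10.9% of 11786 genes. All 80 members were higher in CKO in both classes, as were 8751 of 11599 genes in AT2-like nuclei and 8605 of 11786 in the others, and their ratios went together at Pearson r = 0.75 and Spearman rho = 0.70 over 80 members counted in the same 2 libraries.

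Non-alveolar classes showed the same direction. Macrophage-like nuclei had 9627 in Control (29 nuclei) and 21585 in CKO (387 nuclei), a ratio of 1.16 (1.09 to 1.24). T- and NK-like nuclei had 6864 (60 nuclei) and 19928 (349 nuclei), B-like nuclei 5688 (13) and 18025 (60), and endothelial-like nuclei 7196 (11) and 16772 (126). Over all non-alveolar nuclei the ratio was 1.36 (1.31 to 1.41). Cycling alveolar-like nuclei, 16 in Control and 15 in CKO, had 7130 and 26773. The Control counts of these classes are small, and nuclei of 1 library share its preparation.

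**Figure D3:**
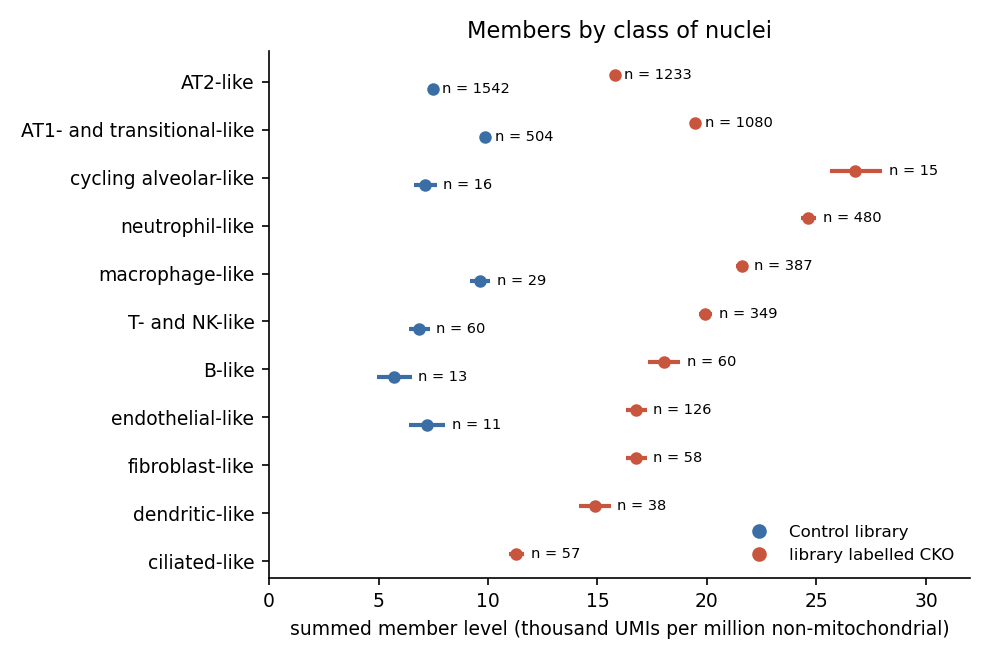
Summed level of the members (in 1000 CPM) in each class of kept nuclei, in the Control library (blue) and the library labelled CKO (red), with the number of nuclei; bars are 95% Poisson intervals for counting error. In the classes with at least 10 nuclei in both libraries, the red point lies to the right of the blue one.

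Within the library labelled CKO, ribosomal protein RNA also differed between cell classes. Non-alveolar nuclei had 19868 CPM and alveolar nuclei 17804, a log2 ratio of 0.16 (0.15 to 0.17), and in Control the same ratio was -0.068 (-0.12 to -0.016). Neutrophil-like nuclei stood highest among the classes of 30 or more nuclei at 24629 (480 nuclei), above AT2-like nuclei by 0.64 (0.62 to 0.67), followed by macrophage-like at 21585, T- and NK-like at 19928, AT1- and transitional-like at 19469 and B-like at 18025. Endothelial-like nuclei at 16772 and fibroblast-like nuclei at 16763 did not differ beyond counting error. Then came AT2-like at 15784 and dendritic-like at 14868, with ciliated-like nuclei lowest at 11300 (57 nuclei), a log2 ratio of -0.48 (-0.53 to -0.44) over AT2-like nuclei. With a mitochondrial limit of 10% the non-alveolar over alveolar ratio was 0.43.

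All 80 members were higher in neutrophil-like than in AT2-like nuclei of that library, from Rpl10a at 0.27 to Rpl7l1 at 1.52. Of all genes 49.7% were higher there. In macrophage-like nuclei all 80 were higher than in AT2-like nuclei as well (52.8% of all genes), from 0.0031 for Rps19 to 0.76 for Rpsa. In ciliated-like nuclei 74 of 80 were lower and 6 higher (46.3% of all genes), with a median of -0.48, Rpl7 lowest at -1.17 and Rpl36a highest at 0.25. Endothelial-like nuclei were mixed, with 47 members higher and 33 lower (48.6% of all genes higher). AT1- and transitional-like nuclei had all 80 members above AT2-like nuclei in CKO (67.9% of all genes), with a median of 0.31. In Control 78 of 80 were higher (69.3% of all genes), with a median of 0.42. All-gene medians were 0.22 in CKO and 0.34 in Control. The summed ratio between these classes moved with the mitochondrial limit. It was 0.30 in CKO and 0.40 in Control with the limit, and 0.053 and -0.21 (-0.22 to -0.19) without it. Depth differed between the classes too, with a median of 994.5 UMIs in the neutrophil-like and 6881 in the ciliated-like class. Their median mitochondrial shares were 6.31% and 16.3%, against 9.86% in AT2-like nuclei. Without the mitochondrial limit, summed ratios over AT2-like nuclei in CKO were 0.40 for neutrophil-like, 0.21 for macrophage-like and -0.31 for ciliated-like nuclei. They were 0.079 for T- and NK-like and -0.086 for B-like nuclei, against 0.34 and 0.19 with the limit. The part of depth and mitochondrial share in these values was not tested.

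RNA from other cells was present in the droplets. Sftpb, a surfactant gene of AT2 and club cells, had 2768 CPM in neutrophil-like nuclei of CKO and 5192 in AT2-like ones. S100a9, a neutrophil gene, had 1204 in neutrophil-like nuclei, 56.4 in alveolar nuclei of CKO and 0 in alveolar nuclei of Control. In alveolar nuclei 9 of 10 neutrophil markers were detected in CKO and 7 of 10 in Control, with summed levels of 186 and 63.4 CPM. The 12 macrophage and monocyte markers summed to 104, with all 12 detected, and 52.7, with 10 detected. Their part in the members' difference was not tested. The AT2, AT1 and club marker lists were higher in CKO alveolar nuclei as well, at 9325 and 12219, 1288 and 2333, and 318 and 732 CPM.

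Open chromatin at the members' promoters differed little between the libraries. A peak within 1000 bases of the gene start was found for 80 members in Control and 81 in CKO, against 58.8% and 59.9% of all genes. Rpl10l and Rpl39l, 2 of the paralogs at or near 0 UMIs, had none in either library, and Rpl7 had none in Control. In the regions where peaks of both libraries overlap, the summed counts at the members' promoters were 3410 per 1000000 counts in all such regions in Control (31415 counts) and 3472 in CKO (37939 counts) in alveolar nuclei, a log2 ratio of 0.026 (0.0046 to 0.048). The 2 classes gave 0.011 (-0.016 to 0.038) in AT2-like nuclei and 0.050 (0.0096 to 0.089) in AT1- and transitional-like nuclei. Scaled to the promoter regions of all genes, whose own sum was at -0.13, the ratio was 0.16 (0.13 to 0.18).

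With at least 200 counts, 79 members could be compared one by one. Of these 48 were higher in CKO (36.4% of all genes) and none was above 2-fold (0.236% of 13581 genes). The median was 0.061, above the all-gene median of -0.11 (quartiles -0.32 and 0.11). The highest were Rpl35a at 0.73 (0.47 to 0.99), Rpl4 at 0.70 (0.43 to 0.97), Rpl23a at 0.66 and Rpl5 at 0.58. The lowest were Rpl36a at -0.62 (-0.89 to -0.34), Rps23 at -0.61 (-0.79 to -0.42), Rpl37 at -0.50 and Rps20 at -0.46. All 4 of the latter had RNA ratios above 2-fold: Rpl37 had 1.53, Rpl36a 1.31, Rps20 1.22 and Rps23 1.14. In AT1- and transitional-like nuclei 1 of 61 members with 200 promoter counts was above 2-fold, against 0.247% of 9300 genes. That member was Rpl14, at 1.03 (0.53 to 1.56). In AT2-like nuclei 0 of 78 were above 2-fold, against 0.194% of 12384 genes.

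Rps29, highest in RNA, had 532 promoter counts in Control and 650 in CKO, 57.7 and 59.5 per 1000000, a ratio of 0.043 (-0.12 to 0.21). Rps27 had 0.54 (0.28 to 0.81), though its promoter region also lies by the start of Rab13. By class, Rps27 had 0.23 (-0.091 to 0.55) in AT2-like nuclei. In AT1- and transitional-like nuclei it had 1.85 (1.16 to 2.62), from 19 counts in Control and 156 in CKO. These counts fall short of the 200 asked of members above, so Rps27 is not among the 61 compared there. Rpl35 had -0.024 (-0.24 to 0.20). Rpl10, lowest in RNA, had 0.087 (-0.13 to 0.30). Across the 79 members the promoter ratio went with the RNA ratio at Pearson r = -0.13 and Spearman rho = -0.13, as a description over genes counted in the same nuclei. In 19 members the promoter region lay near the start of another gene too, and none was shared with another member.

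**Figure D4:**
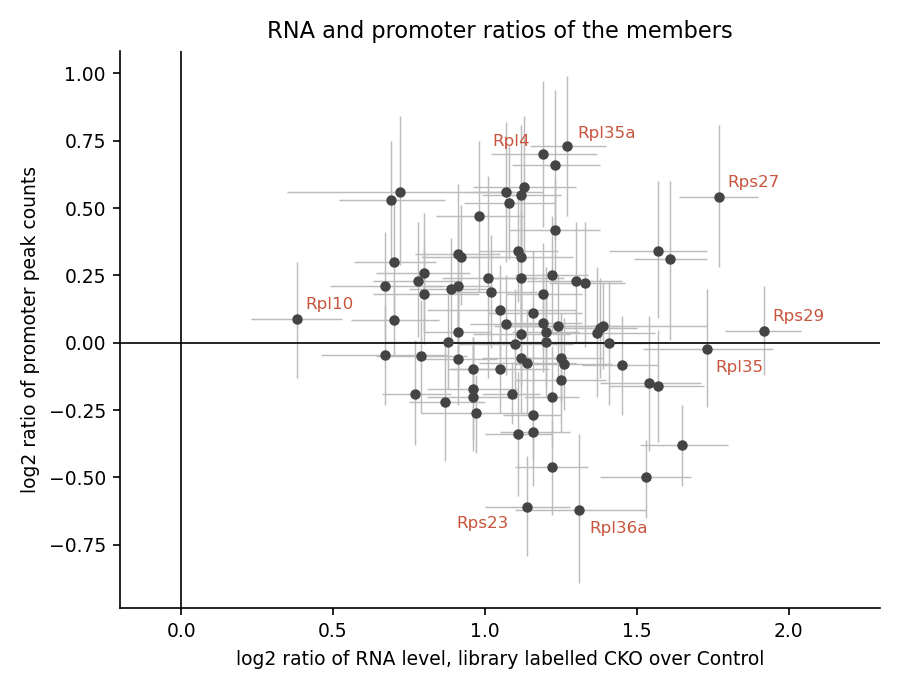
Log2 ratio of the RNA level (x) and of the promoter peak counts (y), library labelled CKO over Control in alveolar nuclei, for the 79 members with at least 200 promoter counts; bars are 95% intervals for counting error. All points lie to the right of 0 on the RNA axis, from 0.38 to 1.92, and scatter on both sides of 0 on the promoter axis, from -0.62 to 0.73.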

How the data were processed

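The deposited values are raw counts of RNA molecules and of transposase cuts in peaks, made by the authors with Cell Ranger ARC 2.0.1 per the file headers. Seurat 4.1.0, Signac 1.6.0 and both mouse builds, GRCm38 and GRCm39, appear in the submitters' processing notes without roles. Of 63 members with a RefSeq GRCm38.p6 promoter, 38 have their start inside the start region given in the files, and GRCm38 was taken as the build. How reads shared with pseudogenes were counted is not given in the sources used here.

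Nuclei were kept with between 500 and 25000 UMIs, 300 or more genes, peak counts between 1000 and 100000, and under 20% mitochondrial UMIs. Both libraries were clustered together in scanpy 1.11.5 (2000 variable genes without members and mitochondrial genes, 30 components, 15 neighbours, Leiden resolution 0.6). Clusters were called by the highest mean log2 fold of a marker list, and non-alveolar names needed a score of 1.4. This naming rule was set, and its limit raised, after the clusters were seen. AT1-like and transitional-like clusters were joined. The reason was that the AT1-like one had a transitional marker, and none of its own, among its top 10 genes. The transitional-like cluster and the AT2-like clusters with 558 and 905 Control nuclei also had none of their own there. The AT2-like cluster with 926 CKO nuclei had 2 of its own. Alternatives are given in the closing section, 1 of them chosen after seeing the data. Scrublet called 12 Control nuclei and 1 of CKO as doublets, so it did not work and doublets were in effect kept.

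UMIs were summed per library and class and divided by non-mitochondrial UMIs. The 95% intervals are exact conditional-binomial for log2 ratios and Poisson for levels. The calculation was run on simulated counts with counting error only, which says nothing about variation between nuclei or libraries. Promoter counts are each library's own peaks within 1000 bases of a gene start, in regions where peaks of both libraries overlap, over the counts in all such regions. By rule, the named members are the 8 highest and 8 lowest by ratio with at least 100 UMIs, 4 and 4 by Control level, by difference between mitochondrial bins and by promoter ratio, the P stalk, Rpsa, Rpl5, Rpl11, Rps6, Rps27a, Rps4x and the paralogs; of each other list, the 2 highest and 2 lowest with at least 100 UMIs. Rpl13a, Rps2, Rps26, Rpl22, Eif4ebp1, Malat1, Sftpb, S100a9 and the extremes within cell classes were named after their values were seen. A few single-gene values are not reported here. The members and lists were chosen with earlier results of these data known. Calculations used scipy 1.17.1, pandas 2.3.3 and numpy 2.4.6 in Python 3.11.15, with figures in matplotlib 3.10.9.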

Additional observations from a re-analysis of the deposited data

How the results depend on the processing

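The summed member log2 ratio in alveolar nuclei, 1.14, was 1.51 with a mitochondrial limit of 10%, 0.57 with none, 1.12 with at least 1000 UMIs, 0.98 with Gm42418, AY036118, Malat1 and Neat1 out of the total, 0.70 by the median of ratios, 1.17 and 1.06 with Control weighted to the CKO mitochondrial shares and class makeup, and 1.22 thinned to 1000 UMIs, which left out 299 Control and 169 CKO nuclei. The 54 members above 2-fold became 7 with no mitochondrial limit, 35 with the 4 RNAs left out and 10 by the median of ratios, and between 44 and 74 otherwise. The non-alveolar over alveolar ratio in CKO, 0.16, was 0.43 with a limit of 10%, 0.11 with none, 0.14 with at least 1000 UMIs, 0.18 without the 8% highest Scrublet scores, 0.20 thinned, and 0.18 without the shallow AT2-like cluster led by AY036118, an alternative chosen after seeing the data. Between mitochondrial bins, Control was 3.00 with the 4 RNAs left out, and CKO was 1.92 in alveolar barcodes only, 1.85 with at least 1000 UMIs and 1.79 with the 4 RNAs left out. The promoter ratio, 0.026, was 0.16 scaled to all promoters and 0.048 with no mitochondrial limit. Of 468 values of 39 named members under 12 alternatives, 465 kept their sign: Rpl10 was at -0.16 and Rpl18 at -0.017 with no mitochondrial limit, and Rpl10 at -0.053 by the median of ratios. The cause of these shifts was not tested. No paired analysis was possible because there is 1 library per genotype and no residual degrees of freedom.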
